A study of Sus scrofa with 67 samples.

Results

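The endometrium of the pig was compared between day 15 and day 12 of the oestrous cycle, the step during which the corpora lutea regress. The libraries were chosen by their labelled tissue and day, which gave 4 libraries of day 15 and 3 of day 12, or 7 of the 66 libraries in the count table. RNA had been sequenced from endometrium, ovary and oviduct of cyclic gilts (young female pigs) on 7 days of the cycle, counted from the first day of oestrous behaviour (day 0). All animals were crossbred gilts (Landrace × Yorkshire) of 6 to 8 months of age, and each gilt gave tissue on 1 day only. The endometrium was a whole tissue sample separated from the uterine muscle, so epithelium, stroma, vessels and immune cells were sequenced together, and a change in the number of cells of a type cannot be told apart from a change in their RNA content. A library is named here by its day and its column number in the table, which could not be matched to single labelled samples. The labels list 4 endometrium samples of day 12 and the count table used here holds 3 columns for them, so 1 could not be analysed. The methods give 3 gilts a day while the design text gives 23 gilts in all, which leaves unstated if the 4 libraries of day 15 stem from 4 gilts. The p-values measure a spread between libraries of the same day. In the main endometrium fit this spread was estimated over all 22 endometrium libraries of the 7 days.

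In the pig, progesterone from the corpora lutea holds the endometrium in a secretory state until the late luteal phase. The luminal and glandular epithelium then makes prostaglandin F2α, a product of phospholipase A2 and the cyclooxygenases, and oxytocin acting on its endometrial receptor raises this output. Prostaglandin F2α ends the life of the corpora lutea (luteolysis), progesterone falls, and ovarian oestrogens prepare the tissue for the next oestrus.

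The total counts of the 7 libraries lay between 9374249 and 11793142, and 3 counts, taken as the lowest detectable level, equalled 0.254 to 0.320 CPM (counts scaled to a common library size). Reads carried no molecular identifiers, so this floor covers counting error only. CPM values of genes below also include edgeR's TMM factors. Epithelial and stromal markers were present in every library: the epithelial cell adhesion molecule EPCAM was at 451 to 1066 CPM and the keratin KRT8 at 814 to 2632 CPM, and the collagen COL3A1 was at 7169 to 14378 CPM. CYP11A1, which starts steroid synthesis in the ovary, was at 1.47 to 4.35 CPM. The share of counts on 13 mitochondrial genes was 2.17% to 6.39% on day 12 and 3.23% to 4.74% on day 15.

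The library of day 15 numbered 2 went against its label. Over the genes that passed the filter on low counts, its log2(CPM + 1) values had a mean Pearson r of 0.916 ± 0.0121 (SD) with the other 3 libraries of day 15 and of 0.973 ± 0.0123 with the 3 libraries of day 12. For numbers 1, 3 and 4 the mean r with the other day 15 libraries was 0.954, 0.955 and 0.949, and that with day 12 was 0.920, 0.922 and 0.904. Among themselves, numbers 1, 3 and 4 correlated at 0.967 to 0.973, and the day 12 libraries at 0.954 to 0.974. All these r are across genes, which are not independent replicates, and describe single libraries. The r of number 2 was 0.980 with day 12 number 1 and 0.979 with day 12 number 2. The chi-squared statistic of the counts per degree of freedom is about 1 for counting noise alone. It was 31.2, 20.3 and 46.2 for number 2 with the 3 libraries of day 12, and 108 to 140 with the rest of day 15. Pairs within day 12 gave 46.4 to 58.0, and pairs among day 15 numbers 1, 3 and 4 gave 30.9 to 34.6. 

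The distance of each library was also read gene by gene. In 2139 genes the mean of numbers 1, 3 and 4 differed from the day 12 mean by at least 1 on the log2 scale, and number 2 lay at a median of -0.01 of that step, where 0 is the day 12 mean and 1 the mean of the others. Of these genes, 92.7% were nearer to day 12 in number 2. For numbers 1, 3 and 4, each against the remaining libraries of its day, 1082, 1139 and 974 genes passed the same limit. The medians were 1.25, 1.20 and 1.503. Here the remaining libraries include number 2, which lay near day 12 and shortened the step. These medians therefore cannot be set directly against that of number 2. What set number 2 apart was not tested, and the results below are given with and without it where they rest on it. It was singled out from the same counts, so calls made without it are not an independent test of the step.

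Placed on a scale between day 0 (0) and day 9 (1), the endometrium moved from the luteal towards the oestrous state in 3 of the 4 libraries. The scale used genes with an adjusted p under 0.05 by edgeR that differed by at least 3 on the log2 scale between days 9 and 0. Days 12 and 15 were not part of this contrast. Their libraries were in the same fit and so shared its filter, scaling and spread. The choice of these genes is therefore not fully independent of them. For the 258 genes higher on day 9, the day 12 libraries stood at 0.615, 0.681 and 0.550, and day 15 numbers 1, 3 and 4 stood at 0.297, 0.202 and 0.130. Number 2 stood at 0.690, above every library of day 12. For the 187 genes lower on day 9, day 12 stood at 0.684, 0.867 and 0.609, day 15 numbers 1, 3 and 4 at 0.194, 0.252 and 0.0530, and number 2 at 0.766, inside the range of day 12. The means of day 18 were 0.0949 and 0.0220, so number 4 lay closest to day 18 on both scales.

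**Figure D1:**
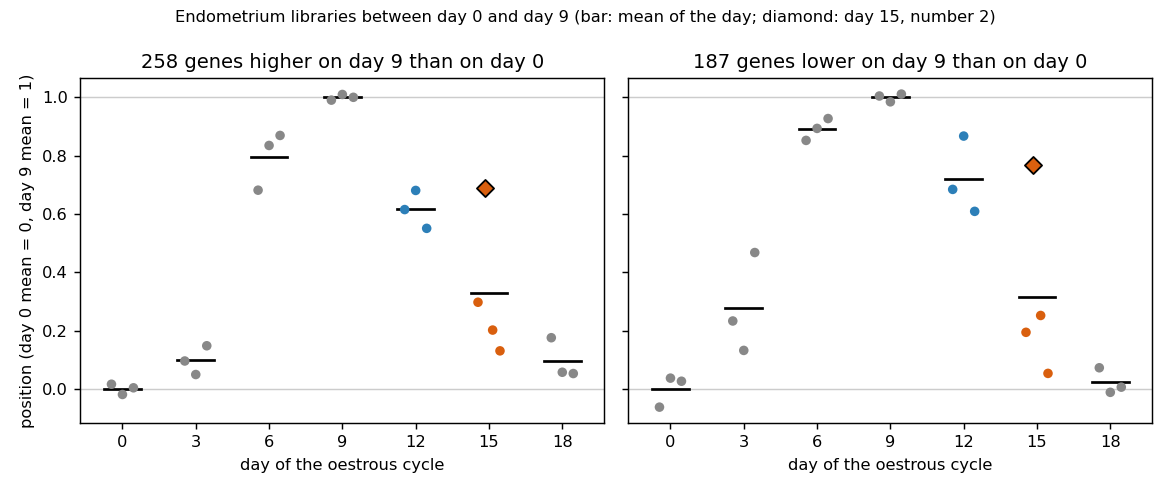
Position of each endometrium library (points) between the day 0 mean (0) and the day 9 mean (1), by day of the cycle, for 258 genes higher on day 9 (left) and 187 genes lower on day 9 (right). Bars are means of a day, day 12 is blue, day 15 is orange, and the diamond is day 15 number 2, which lies at 0.690 and 0.766 while the other 3 libraries of its day lie at or below 0.297.

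Of 15341 genes tested, 947 (6.17%) were differentially expressed (DEGs) between day 15 and day 12 at an adjusted p under 0.05 in edgeR (quasi-likelihood F test, Benjamini-Hochberg). Higher expression on day 15 was found for 599 genes (3.9%) and lower expression for 348 (2.27%). Every library of day 15 was above every library of day 12 in 770 genes (5.02%) and below in 813 (5.3%). Without number 2, 4349 genes passed the test (28.4% of 15325), of which 2078 were higher (13.6%) and 2271 lower (14.8%), and all 947 DEGs were among them. Among the DEGs, higher genes thus outnumbered lower ones with all libraries, and lower genes outnumbered higher ones without number 2. Of the 947 DEGs, 744 were nearer to the day 12 mean than to the other day 15 libraries in number 2, against 12, 23 and 6 in numbers 1, 3 and 4. The DEGs were called from these same libraries, so the low counts of numbers 1, 3 and 4 follow in part from that choice. These counts are a description only.

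The number of DEGs rested on single libraries and on the spread borrowed from the other days. When number 1 or number 4 of day 15 was left out, edgeR called 0 genes, with 3216 and 3175 genes at an unadjusted p under 0.05, and without number 3 it called 8. Leaving out 1 library of day 12 gave 224, 112 and 48 DEGs (numbers 1, 2 and 3). With days 12 and 15 fitted alone, 1 gene was called when number 2 was kept and 2149 when it was left out. Over all these and further alternatives, the adjusted p of 9 DEGs of the pathway lists described below (PLA2G4A, PTGER2, OXTR, HSD11B1, SPP1, TRPV6, MMP7, TLR4 and SPARC) ran from 9.87e-11 to 0.336, and none changed its direction. These alternatives include settings without number 2 that were chosen after seeing the data. BAK1 and S1PR1, also DEGs of these lists, are not part of this range.

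**Figure D2:**
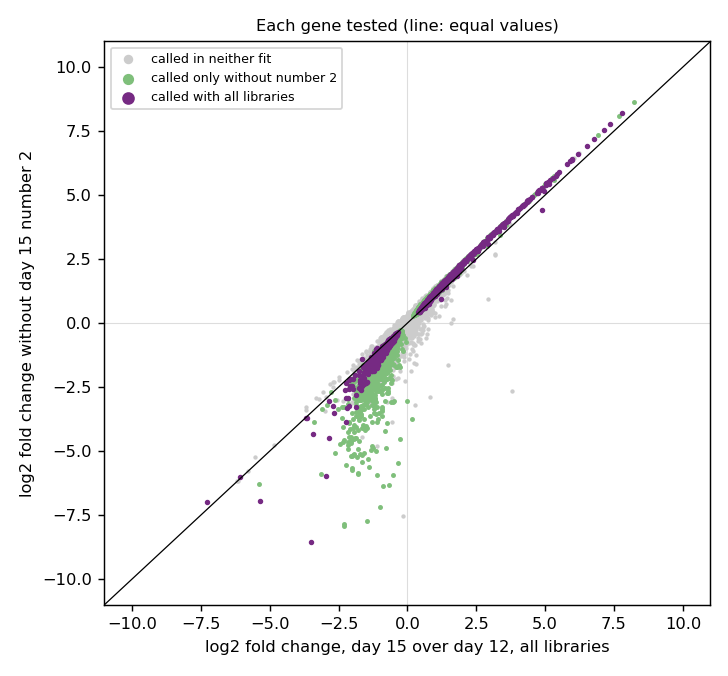
Log2 fold change of day 15 over day 12 for each of 15325 genes with all 7 libraries (x axis) and without day 15 number 2 (y axis), with a line at equal values. Purple points are the 947 genes called with all libraries, green points the 3402 called only without number 2 and grey points the rest; values without number 2 are larger in size for most called genes.

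Genes for the release of prostaglandin precursors (PLA2G4A), the response to prostaglandin E2 (PTGER2) and the response to oxytocin (OXTR) rose on day 15, in numbers 1, 3 and 4 but not in number 2. Among 10 tested genes of prostaglandin synthesis and transport, 1 rose and 0 fell with all libraries (3 at an unadjusted p under 0.05, 1 called by DESeq2 and 4 by limma voom), and without number 2, 3 rose and 1 fell. That is 10% of the list higher with all libraries, against 3.9% of all genes tested, and 30% higher and 10% lower without number 2, against 13.6% and 14.8% of all genes. PLA2G4A, the cytosolic phospholipase A2 that frees arachidonic acid, was at 89.1, 68.03 and 103 CPM on day 12 and 263, 88.4, 171 and 249 CPM on day 15 (numbers 1 to 4). Its log2 fold change (log2 FC, with its SE) was 1.15 ± 0.32 (adjusted p = 0.0432 by edgeR) and 1.39 ± 0.27 without number 2 (adjusted p = 0.00103). The days overlapped through number 2 alone. PTGS2, the inducible cyclooxygenase, was at 72.8, 20.8 and 292 CPM on day 12 and 1018, 73.3, 429.8 and 715 CPM on day 15. It varied widely within day 12 and passed the edgeR test only without number 2 (log2 FC 2.12 ± 0.86, adjusted p = 0.119, and 2.49 ± 0.78, adjusted p = 0.0237, without number 2). PTGS1, the constitutive cyclooxygenase, did not pass in either fit (adjusted p = 0.199 and 0.127). SLCO2A1, the prostaglandin transporter, passed only without number 2 (log2 FC 1.29 ± 0.39, adjusted p = 0.0206 by edgeR), as did PTGES, a prostaglandin E synthase, in the other direction. PTGES was at 52.2, 48.97 and 59.7 CPM on day 12 and 29.04, 64.7, 13.8 and 29.7 CPM on day 15, so number 2 held the highest value of all 7 libraries (log2 FC -1.15 ± 0.40, adjusted p = 0.0419 without it).

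Of 5 prostaglandin receptors tested, 1 rose with all libraries and 2 without number 2 (20% higher and 0% lower with all libraries, against 3.9% and 2.27% of all genes, and 40% and 0% without number 2, against 13.6% and 14.8%). PTGER2, a receptor of prostaglandin E2, was at 51.9, 25.9 and 49.1 CPM on day 12 and 380.2, 29.02, 538 and 626 CPM on day 15. The range of day 12 held number 2, whereas the other 3 libraries of day 15 were far above it (log2 FC 3.21 ± 0.80, adjusted p = 0.0327, and 3.60 ± 0.61, adjusted p = 0.000434, without number 2, by edgeR). PTGER4, a second receptor of this ligand, was at 30.01, 33.1 and 31.9 CPM on day 12 and 100.4, 23.2, 64.9 and 95.6 CPM on day 15 and passed only without number 2 (log2 FC 1.46 ± 0.32, adjusted p = 0.00274 by edgeR).

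OXTR, the oxytocin receptor, was among the DEGs with all libraries. It was at 1.73, 1.17 and 3.72 CPM on day 12 and 45.3, 1.98, 10.17 and 34.7 CPM on day 15. Numbers 1, 3 and 4 of day 15 were above every library of day 12, and number 2 lay within the day 12 range. The edgeR log2 FC was 3.37 ± 0.90 (adjusted p = 0.0388) and 3.76 ± 0.76 without number 2 (adjusted p = 0.00162). Over the cycle OXTR stood at 3.82 to 9.41 CPM on day 0, 0.714 to 1.13 CPM on day 9 and 10.5 to 90.3 CPM on day 18. It was 1 of 8 tested genes of oxytocin and calcium signalling, of which 0 fell (2 at an unadjusted p under 0.05, 2 DEGs by DESeq2 and 3 by limma voom). NOS3, the endothelial nitric oxide synthase, joined it without number 2 (log2 FC 1.48 ± 0.29, adjusted p = 0.00119 by edgeR). The shares of this list were 12.5% higher and 0% lower with all libraries, against 3.9% and 2.27% of all genes, and 25% and 0% without number 2, against 13.6% and 14.8%. The downstream enzymes PLCB1 and PRKCA and the calcium channels ITPR1 and ITPR2 did not pass in either fit, with an adjusted p of at least 0.145. The median log2 FC over these lists was 0.39 for prostaglandin synthesis, 0.81 for the receptors and 0.51 for oxytocin and calcium signalling, against 0.02 over all genes tested.

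**Figure D3:**
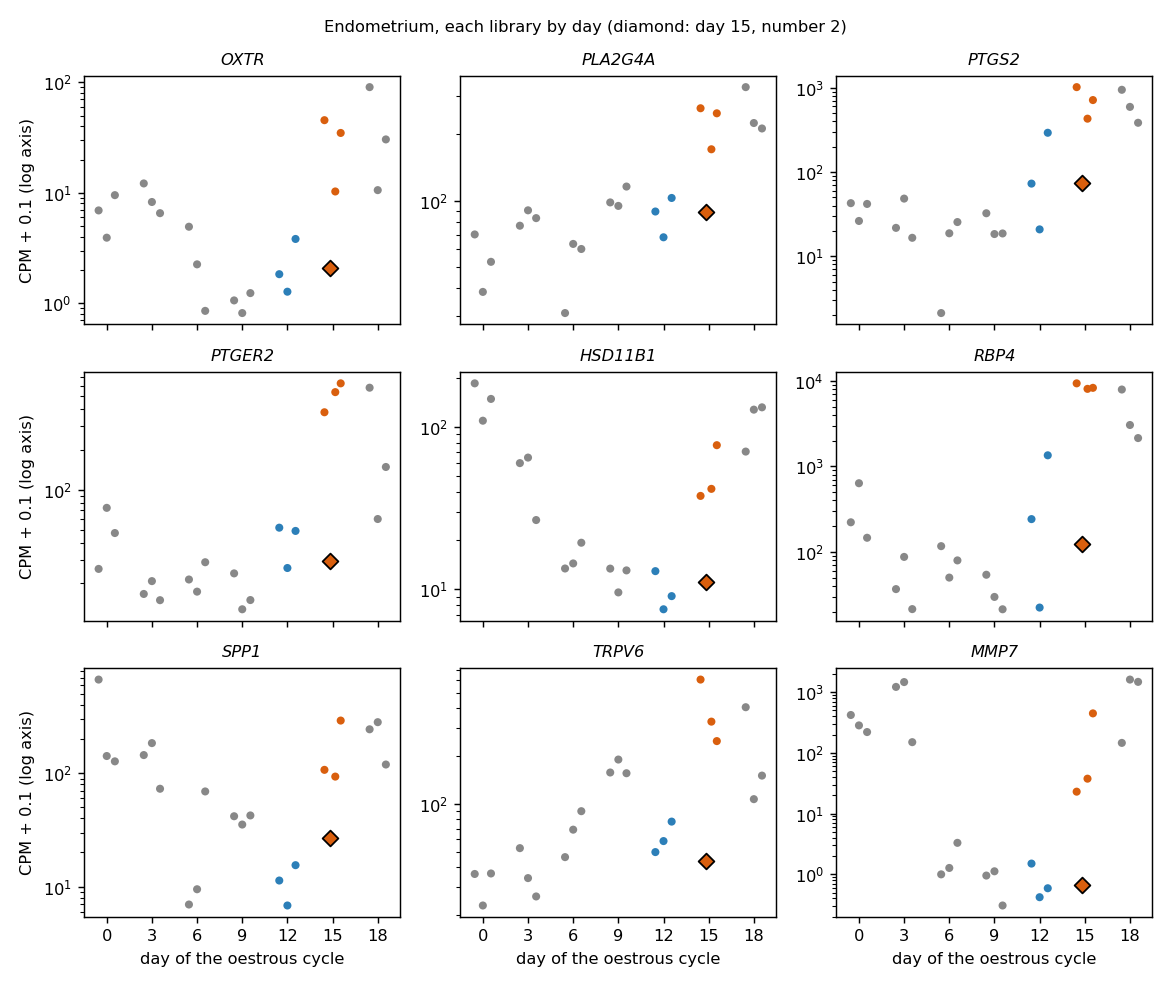
Level of 9 genes (CPM + 0.1, log axis) in each endometrium library by day of the cycle, with day 12 in blue, day 15 in orange and day 15 number 2 as a diamond. In all 9 genes day 15 numbers 1, 3 and 4 lie above the day 12 libraries, while number 2 lies inside or close to the range of day 12 except in SPP1, where it lies above it.

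Of steroid receptors and steroid-metabolising enzymes, HSD11B1 rose, and 4 others fell when number 2 was left out. Of 11 tested, 1 rose with all libraries and 0 fell, and without number 2, 1 rose and 4 fell (9.09% higher and 0% lower with all libraries, against 3.9% and 2.27% of all genes, and 9.09% and 36.4% without number 2, against 13.6% and 14.8%). HSD11B1, which regenerates active glucocorticoid, was at 12.9, 7.45 and 8.998 CPM on day 12 and 37.5, 10.96, 41.4 and 76.99 CPM on day 15. Its level in numbers 1, 3 and 4 was above every library of day 12 (log2 FC 2.09 ± 0.47, adjusted p = 0.0278, and 2.41 ± 0.37, adjusted p = 0.000187, without number 2, by edgeR). HSD11B2, which inactivates glucocorticoid, was at 8.16, 13.1 and 9.19 CPM on day 12 and 1.08, 9.92, 1.41 and 0.453 CPM on day 15. Numbers 1, 3 and 4 were below 1.5 CPM and number 2 was inside the range of day 12, so that the log2 FC went from -1.65 ± 0.69 (adjusted p = 0.133 by edgeR) to -3.36 ± 0.56 without it (adjusted p = 0.000381). 

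The oestrogen receptor gene ESR1 was at 782, 738 and 588 CPM on day 12 and 346, 796, 404 and 284 CPM on day 15. Number 2 had the highest value of the 7 libraries and the other day 15 libraries the 3 lowest (log2 FC -0.62 ± 0.24, adjusted p = 0.112, and -1.03 ± 0.16, adjusted p = 0.000194, without number 2, by edgeR). The membrane progesterone receptor component gene PGRMC1 had a log2 FC of -0.88 ± 0.23 (adjusted p = 0.00908) by edgeR without number 2, and passed in that fit only. PGR, the nuclear progesterone receptor, was at 18.5, 26.8 and 18.5 CPM on day 12 and 20.3, 24.1, 19.3 and 16.8 CPM on day 15. The days overlapped and the edgeR log2 FC was -0.08 ± 0.27 (adjusted p = 0.878), or -0.17 ± 0.29 without number 2 (adjusted p = 0.691).

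Among 15 tested genes of uterine secretions and of the progesterone response, SPP1 and TRPV6 rose with all libraries and 0 fell. Without number 2, 4 rose and 1 fell (13.3% higher and 0% lower with all libraries, against 3.9% and 2.27% of all genes, and 26.7% and 6.67% without number 2, against 13.6% and 14.8%). SPP1, which encodes the secreted adhesion protein osteopontin, was at 11.2, 6.71 and 15.4 CPM on day 12 and 107, 26.8, 93.5 and 292 CPM on day 15. It was higher in all 4 libraries of day 15, number 2 included, than in any of day 12 (log2 FC 3.55 ± 0.89, adjusted p = 0.0341, and 3.89 ± 0.84, adjusted p = 0.00248, without number 2, by edgeR). TRPV6, an epithelial calcium channel, was at 49.6, 58.2 and 77.3 CPM on day 12 and 607, 43.7, 329.7 and 249 CPM on day 15. Here number 2 was the lowest of all 7 libraries and the other 3 the highest (log2 FC 2.32 ± 0.60, adjusted p = 0.0360, and 2.68 ± 0.45, adjusted p = 0.000367, without number 2, by edgeR). RBP4, the retinol carrier that the uterus secretes, was at 242, 22.4 and 1348 CPM on day 12 and 9336, 124, 8051 and 8274 CPM on day 15. It varied widely within day 12, was close to uniform in numbers 1, 3 and 4, and passed only without number 2 (log2 FC 3.58 ± 1.20, adjusted p = 0.0711, and 3.99 ± 1.005, adjusted p = 0.00681, without number 2, by edgeR).

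The growth factor genes of this list went in opposite directions without number 2. FGF9, an endometrial mitogen, was at 9.32, 7.98 and 10.3 CPM on day 12 and 24.7, 10.96, 31.8 and 31.2 CPM on day 15 (log2 FC 1.67 ± 0.50, adjusted p = 0.0187 by edgeR without number 2). IGF1, which supports epithelial growth, was at 52.7, 77.2 and 55.3 CPM on day 12 and 5.53, 59.4, 6.499 and 3.99 CPM on day 15. Number 2 was inside the day 12 range and the other 3 libraries stood at a small part of it (log2 FC -1.71 ± 0.67, adjusted p = 0.111, and -3.53 ± 0.41, adjusted p = 2.30e-05, without number 2, by edgeR). HOXA10 and HOXA11, homeobox regulators of the uterus, and FOXA2, which marks the glands, did not pass in either fit.

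Among 19 genes of the extracellular matrix and its remodelling, 1 rose and 1 fell with all libraries, and 3 rose and 1 fell without number 2 (5.26% higher and 5.26% lower with all libraries, against 3.9% and 2.27% of all genes, and 15.8% and 5.26% without number 2, against 13.6% and 14.8%). MMP7, the epithelial protease matrilysin, was at 1.401, 0.319 and 0.489 CPM on day 12 and 22.9, 0.567, 37.5 and 447 CPM on day 15. Day 12 rested on 17, 3 and 5 counts, so the size of the fold change is uncertain (log2 FC 7.35 ± 1.70, adjusted p = 0.0278, and 7.76 ± 1.38, adjusted p = 0.000616, without number 2, by edgeR). On days 0 and 18 MMP7 stood at 220.2 to 420.5 CPM and 146 to 1612 CPM. SPARC, a collagen-binding glycoprotein of the matrix, was at 232, 252 and 351 CPM on day 12 and 129.6, 149.9, 103 and 121 CPM on day 15. All 4 libraries of day 15 were below all of day 12, and number 2 lay with its own day (log2 FC -1.15 ± 0.20, adjusted p = 0.0175, and -1.24 ± 0.21, adjusted p = 0.000410, without number 2, by edgeR). The secreted protease gene ADAMTS1 (log2 FC 1.79 ± 0.40, adjusted p = 0.00318) and the collagenase gene MMP1 (adjusted p = 0.0384) passed the edgeR test only without number 2, and MMP1 rested on 1 library, with 132 counts in number 4 and at most 4 in each of the others. The fibrillar collagen genes COL1A2, COL3A1 and COL5A1 had log2 FC of -0.45, -0.50 and -0.75 and did not pass in either fit.

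In the cytokine and innate immunity list, 1 of 17 genes rose and 0 fell with all libraries, and 6 rose and 1 fell without number 2 (5.88% higher and 0% lower with all libraries, against 3.9% and 2.27% of all genes, and 35.3% and 5.88% without number 2, against 13.6% and 14.8%). TLR4, the receptor for bacterial lipopolysaccharide, was at 14.3, 8.84 and 15.6 CPM on day 12 and 47.4, 19.5, 43.5 and 57.1 CPM on day 15. All libraries of day 15 were above all of day 12, with number 2 the lowest of its day (log2 FC 1.70 ± 0.39, adjusted p = 0.0278, and 1.93 ± 0.36, adjusted p = 0.000866, without number 2, by edgeR). Without number 2 the complement genes C3 and CFB, the iron-binding lipocalin gene LCN2, the chemokine gene CXCL2 and the calprotectin subunit S100A8 also rose. LCN2 was at 4.86, 2.45 and 4.21 CPM on day 12 and 29.5, 2.93, 21.3 and 11.05 CPM on day 15 (log2 FC 2.40 ± 0.65, adjusted p = 0.0110 by edgeR without number 2). CFB, an activator of the alternative complement pathway, was at 3.96, 2.45 and 3.81 CPM on day 12 and 8.13, 3.02, 12.3 and 12.05 CPM on day 15 (log2 FC 1.66 ± 0.34, adjusted p = 0.00163 by edgeR without number 2). S100A8 had at most 1 count in each library of day 12, and 0 counts in number 2, and stood at 1.45 to 3.296 CPM in the other day 15 libraries. S100A8 is also 1 of the 2 neutrophil markers tested and so belongs to both lists. The other marker, CSF3R, rose without number 2 as well (100% of the 2 higher, against 13.6% of all genes). The summed level of these 2 genes was 0.958 to 3.54 CPM on day 12 and 0.662 to 26.01 CPM on day 15, lowest in number 2. Their part in these changes was not tested.

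DEFB1, an antimicrobial peptide of epithelia, varied widely within day 15. It was at 295, 252 and 176 CPM on day 12 and 8.34, 373, 6.88 and 10.4 CPM on day 15. Numbers 1, 3 and 4 were close together, whereas number 2 had the highest value of the 7 libraries, and the edgeR log2 FC was -1.28 ± 1.08 (adjusted p = 0.459) with it and -4.81 ± 0.81 (adjusted p = 0.000405) without it. Of 7 interferon response genes, 0 passed with all libraries by edgeR and 0 had an unadjusted p under 0.05 (0 by DESeq2 and 1 by limma voom), and IFIT1, an interferon-induced antiviral gene, fell without number 2 (log2 FC -1.26 ± 0.27, adjusted p = 0.00241). Without number 2 that is 0% of the list higher and 14.3% lower, against 13.6% and 14.8% of all genes.

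In the cell death list of 6 genes, 0 rose and 1 fell with all libraries, and 2 rose and 2 fell without number 2 (0% higher and 16.7% lower with all libraries, against 3.9% and 2.27% of all genes, and 33.3% and 33.3% without number 2, against 13.6% and 14.8%). BAK1, a pro-apoptotic pore protein of mitochondria, was at 62.98, 67.2 and 80.4 CPM on day 12 and 35.2, 62.7, 38.9 and 42.5 CPM on day 15. Number 2 was just below the lowest library of day 12 (log2 FC -0.65 ± 0.19, adjusted p = 0.0471, and -0.85 ± 0.16, adjusted p = 0.00104, without number 2, by edgeR). Without number 2 the initiator caspase gene CASP8 (log2 FC 0.74 ± 0.20) and the stress gene GADD45B (1.49 ± 0.41) rose, and CASP9, a caspase of the mitochondrial pathway, fell (-0.58 ± 0.18), with adjusted p of 0.0102, 0.0112 and 0.0215 by edgeR. Of 8 sphingolipid genes, 1 rose and 0 fell with all libraries, and 1 rose and 2 fell without number 2 (12.5% higher and 0% lower with all libraries, against 3.9% and 2.27% of all genes, and 12.5% and 25% without number 2, against 13.6% and 14.8%). With all libraries 3 had an unadjusted p under 0.05, and DESeq2 called 1 and limma voom 4. S1PR1, a receptor for sphingosine-1-phosphate, was at 18.4, 22.7 and 32.2 CPM on day 12 and 63.6, 19.5, 75.8 and 75.7 CPM on day 15 (log2 FC 1.27 ± 0.32, adjusted p = 0.0341, and 1.56 ± 0.19, adjusted p = 2.60e-05, without number 2, by edgeR). SGPP1, which removes the phosphate of this lipid, was at 112, 159 and 93.5 CPM on day 12 and 17.4, 127, 16.9 and 13.6 CPM on day 15 and passed only without number 2 (log2 FC -2.93 ± 0.33, adjusted p = 1.99e-05 by edgeR).

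None of the 15 cell cycle genes tested was a DEG by edgeR, with or without number 2, against 6.17% of all genes with it and 28.4% without it. In either fit 0 had an unadjusted p under 0.05, and DESeq2 and limma voom also called 0. The list's median log2 FC was -0.41 (-0.34 without number 2), and single values with all libraries ran from -0.95 for the mitotic kinesin KIF20A to 0.52 for the kinase AURKB. Against 0.02 over all genes tested, the medians of the other lists were -0.14 for steroid genes, -0.23 for uterine secretions, -0.18 for the matrix, 0.63 for cytokines and innate immunity, -0.20 for the interferon response, 0.16 for cell death and -0.01 for sphingolipids.

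The genes with the largest rises were chosen by the size of the log2 FC among DEGs in which every library of day 15 lay above every library of day 12, with at least 10 counts in each library of day 15. As the rule uses these values, they are given as a description. PRSS16, a serine protease best known from the thymus, was at 1.07, 0.426 and 0.782 CPM on day 12 and 59.2, 8.601, 10.8 and 31.97 CPM on day 15. Number 2 was the lowest of its day and still above day 12, and the log2 FC was 5.14 ± 0.86 (adjusted p = 0.0175 by edgeR).

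DDX52, an RNA helicase gene, separated number 2 from the rest of its day. It was at 34.5, 33.96 and 33.4 CPM on day 12 and 266, 36.4, 273 and 269 CPM on day 15. Numbers 1, 3 and 4 lay close together, as did the libraries of day 12, and number 2 stood just above day 12. Its log2 FC was 2.64 ± 0.54 with number 2 and 2.99 ± 0.38 without (adjusted p = 0.0250 and 4.22e-05 by edgeR). HGF, a growth factor made by stromal cells that acts on epithelium, was at 0.907, 1.49 and 0.489 CPM on day 12 and 4.99, 1.51, 9.89 and 6.07 CPM on day 15. Number 2 was only just above the highest library of day 12.

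The ciliary membrane protein gene PKHD1 and the spindle orientation gene GPSM2 were higher on day 15 by log2 FC of 3.57 ± 0.87 and 2.75 ± 0.78. For GPSM2 a single library set most of this, since day 15 was at 37.7, 5.95, 7.25 and 5.52 CPM and the log2 FC was 1.58 without number 1 (adjusted p = 0.170 by edgeR). Without number 4 that of PKHD1 was 2.65 and that of SPP1 2.77 (adjusted p = 0.0981 and 0.0987 by edgeR). The Ras-like GTPase gene RASL10A, the homeobox gene DLX3 and the phosphatase inhibitor gene PPP1R14C were, with SPP1, among the largest rises as well. The log2 FC of RASL10A, DLX3 and PPP1R14C were 4.24 ± 0.89, 3.33 ± 0.73 and 3.01 ± 0.86, with day 12 levels of at most 2.23 CPM, and DLX3 had 2.67 without number 3 (adjusted p = 0.0660 by edgeR). PRSS16 had 4.45 without number 1 (adjusted p = 0.0538 by edgeR).

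**Figure D4:**
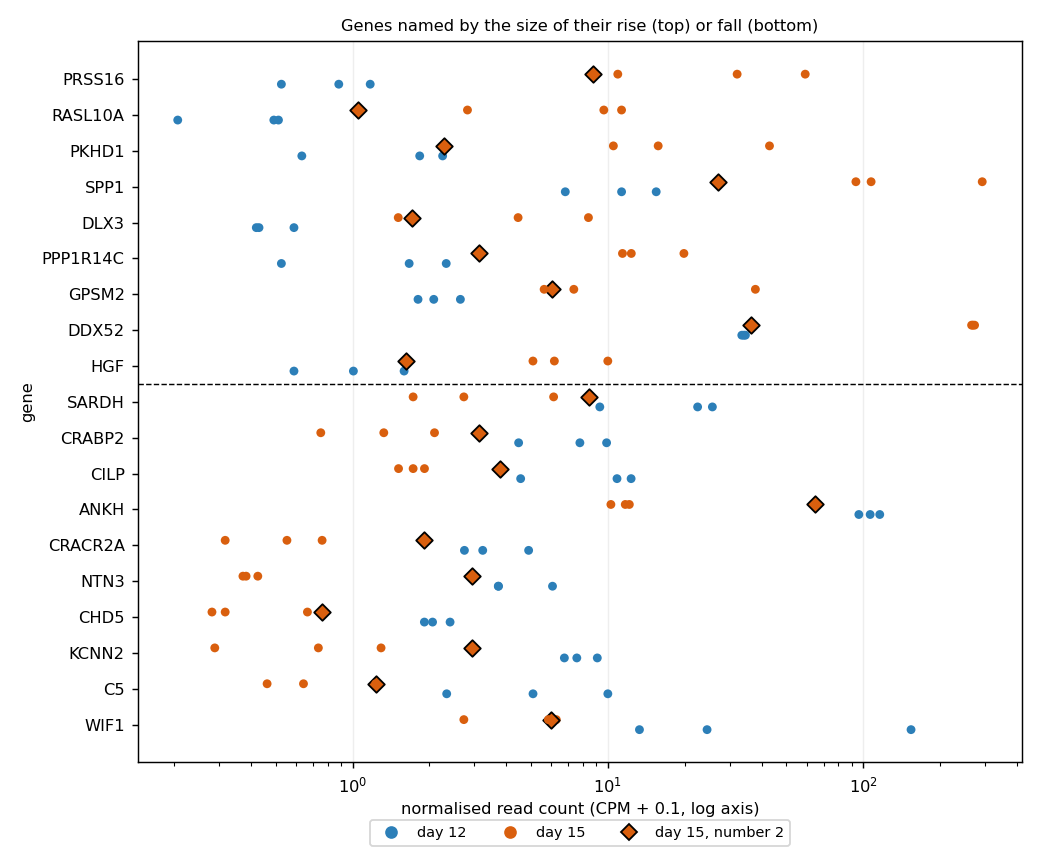
Normalised read count (CPM + 0.1, log axis) of 9 of the largest rises (above the dashed line) and the 10 largest falls (below it) in the 3 libraries of day 12 (blue) and the 4 of day 15 (orange), with day 15 number 2 as a diamond. Number 2 is the day 15 library nearest to day 12 in most of the 19 genes, as in DDX52 and ANKH.

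The largest falls were chosen by the same rule in the other direction. WIF1, a secreted inhibitor of Wnt ligands, was at 13.2, 154 and 24.4 CPM on day 12 and 6.18, 5.86, 5.75 and 2.63 CPM on day 15. Day 12 number 2 was far above the other libraries of its day, and day 15 was lower than all of them, with a log2 FC of -3.64 ± 0.65 (adjusted p = 0.0175 by edgeR) that shrank to -1.88 without it (adjusted p = 0.0522). The complement component gene C5 was at 9.89, 2.24 and 4.99 CPM on day 12 and 0.542, 1.13, 1.13 and 0.362 CPM on day 15 (log2 FC -2.83 ± 0.55, or -2.19 with adjusted p = 0.0574 by edgeR without day 12 number 1).

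ANKH, a membrane protein of pyrophosphate export, had the highest mean level of the 10 falls on day 12. It was at 116, 106 and 96.05 CPM on day 12 and 12.03, 64.7, 10.17 and 11.6 CPM on day 15. Numbers 1, 3 and 4 were close together and number 2 was between them and day 12, and the log2 FC was -2.11 ± 0.52 with all libraries and -3.23 ± 0.35 without number 2 (adjusted p = 0.0327 and 1.60e-05 by edgeR). NTN3, a netrin guidance factor, had the same arrangement at a lower level, with 3.63, 3.62 and 5.97 CPM on day 12 and 0.325, 2.84, 0.283 and 0.272 CPM on day 15. CRABP2, which carries retinoic acid to the nucleus, was at 4.37, 7.67 and 9.78 CPM on day 12 and 0.650, 3.02, 1.22 and 1.99 CPM on day 15 (log2 FC -2.05 ± 0.55).

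The remaining falls were KCNN2, a calcium-activated potassium channel, CHD5, a chromatin remodeller, CRACR2A, a regulator of calcium entry, CILP, a matrix protein of cartilage, and SARDH, a mitochondrial enzyme of sarcosine breakdown. Their log2 FC lay between -2.66 and -2.03. SARDH, as an example, was at 25.6, 22.4 and 9.19 CPM on day 12 and 1.63, 8.32, 6.03 and 2.63 CPM on day 15. In number 2 it was just below the lowest library of day 12. All 19 of these rises and falls, as well as TLR4, SPARC and BAK1, were also DEGs without number 2, and without it PRSS16, PKHD1 and GPSM2 had log2 FC of 5.43 ± 0.81, 3.94 ± 0.76 and 3.01 ± 0.79 and WIF1, C5 and CRABP2 of -3.71 ± 0.74, -3.06 ± 0.62 and -2.45 ± 0.60.

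The DEGs were then followed to days that did not enter the contrast. Between day 9 and day 18, 359 of the 599 genes higher on day 15 (59.9%) also rose and 2 fell, where 12.7% of all genes tested rose. Of the 348 genes lower on day 15, 158 (45.4%) also fell and 1 rose, where 12.4% of all genes fell. Their median log2 FC of day 18 against day 9 was 1.08 and -0.52, against 0.03 over all genes. Between day 9 and day 0, 193 of the 599 (32.2%) were higher on day 0 and 14 lower, where 12.5% of all genes were higher. Of the 348, 99 (28.4%) were lower on day 0 and 14 higher, where 12% of all genes were lower. Of the DEGs found without number 2, 970 of the 2078 higher genes (46.7%) rose and 944 of the 2271 lower genes (41.6%) fell between days 9 and 18. Both contrasts share day 9 and the fitted spread, so they are not independent of each other. The contrast that chose the DEGs comes from the same fit and shares this spread gene by gene. The shares above are therefore not independent of that choice, and how much it adds to them was not tested.

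OXTR, PTGER2 and HSD11B1 show such courses in single genes. PTGER2 was at 12.7 to 23.6 CPM on day 9 and 60.3 to 581 CPM on day 18, and the 3 libraries of day 18 spread over a wider range than numbers 1, 3 and 4 of day 15. HSD11B1 rose from 9.49 to 13.3 CPM on day 9 to 70.3 to 132 CPM on day 18 and was at 109 to 185 CPM on day 0. TRPV6 had another course, at 156 to 190.2 CPM on day 9, above its day 12 range, and 107 to 406 CPM on day 18. 

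Markers of the cell types in the tissue moved in part with the step. Of 7 tested smooth muscle genes, 0 were DEGs with all libraries by edgeR (3 at an unadjusted p under 0.05, 1 by DESeq2 and 4 by limma voom), and 3 rose without number 2, ACTG2, CNN1 and TAGLN. Without number 2 that is 42.9% of the list higher and 0% lower, against 13.6% and 14.8% of all genes. The summed level of this list was 424, 506 and 889 CPM on day 12 and 856, 373, 1383 and 1601 CPM on day 15, so day 12 number 3 stood with day 15 number 1 and day 15 number 2 was the lowest, while the smooth muscle myosin gene MYH11 did not pass in either fit. Of 3 endothelial genes, 0 passed with all libraries (2 at an unadjusted p under 0.05, 0 by DESeq2 and 2 by limma voom) and 2 rose without number 2, PECAM1 and TEK. Without number 2 that is 66.7% higher and 0% lower, against 13.6% and 14.8% of all genes. The sum of the 3 endothelial genes was 198, 213 and 510 CPM on day 12 and 489, 197, 505 and 603 CPM on day 15, and day 12 number 3 again stood with day 15 numbers 1, 3 and 4. Voom gave that library of day 12 a quality weight of 0.256, the second lowest of the 7 after day 15 number 2.

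Of 5 epithelial genes 1 rose with all libraries, and 3 rose and 1 fell without number 2 (20% higher and 0% lower with all libraries, against 3.9% and 2.27% of all genes, and 60% and 20% without number 2, against 13.6% and 14.8%). EPCAM was at 494, 496 and 477 CPM on day 12 and 1066, 451, 889 and 999 CPM on day 15 (log2 FC 0.80 ± 0.23, adjusted p = 0.0444, and 1.01 ± 0.17, adjusted p = 0.000367, without number 2, by edgeR). KRT8 was at 1480.3, 1338 and 2632 CPM on day 12 and 1089, 1715, 869 and 814 CPM on day 15 and passed in the other direction without number 2 (log2 FC -0.97 ± 0.28, adjusted p = 0.0157 by edgeR). The ciliated cell regulator FOXJ1 was at 177, 76.4 and 205 CPM on day 12 and 144, 190.2, 152 and 165 CPM on day 15 and did not pass (log2 FC 0.09 ± 0.32, adjusted p = 0.879 by edgeR). The stromal sum, which COL3A1 dominates, was 12908 to 17111 CPM on day 12 and 9554 to 13427 CPM on day 15, and VIM and DCN of this list rose without number 2. That is 33.3% of the 6 stromal genes tested higher and 0% lower, against 13.6% and 14.8% of all genes. The part of cell makeup in the step was not tested.

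Markers of leukocytes were low in both groups, and the summed erythrocyte markers varied within each day. Of 8 T and NK cell genes and 4 macrophage genes, 0 were DEGs by edgeR in either fit, against 6.17% of all genes with all libraries and 28.4% without number 2. With all libraries 0 had an unadjusted p under 0.05 (1 in each list without number 2). DESeq2 called 0 of either list with all libraries and 1 macrophage gene without number 2, and limma voom called 1 macrophage gene in either case. Of 3 B and plasma cell genes, MZB1, a chaperone of antibody secretion, fell without number 2 (log2 FC -1.90 ± 0.52, adjusted p = 0.0117 by edgeR). That is 0% of this list higher and 33.3% lower, against 13.6% and 14.8% of all genes. Summed levels on day 12 and day 15 were 23.3 to 41.8 and 25.2 to 38.5 CPM for T and NK cells, 11.4 to 33.9 and 7.61 to 35.3 CPM for B and plasma cells, and 27.6 to 38.05 and 30.6 to 58.3 CPM for macrophages. The 2 tested erythrocyte genes HBB and ALAS2 did not pass in either fit, with sums of 67.3 to 188 CPM on day 12 and 15.3 to 230 CPM on day 15.

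In the oviduct and the ovary, with 4 libraries on each of both days, the step was called in 2 of 15665 genes (0.0128%) and 4 of 15638 genes (0.0256%) by edgeR. These counts rested on the setting. DESeq2 called 217 and 1361, and edgeR called 0 and 0 with the 2 days alone (1988 and 1659 at an unadjusted p under 0.05). When the day 15 library numbered 2 of the tissue was left out, a setting chosen after seeing the data, edgeR called 851 genes in the oviduct (5.45%) and 1176 in the ovary (7.53%). With all libraries they were KIF3B and SCIN in the oviduct and MICAL1, NRAP, ENSSSCG00000015318 and ENSSSCG00000027499 in the ovary, and they are named because they are few. Genes that rose in the endometrium had a median log2 FC of 0.06 in the oviduct and 0.18 in the ovary, and those that fell had -0.10 in both, against 0.02 and 0.03 over all genes there. Without number 2 the medians were 0.07 and 0.21 for the genes that rose and -0.08 and -0.16 for those that fell, against 0.01 in both. The difference between tissues was not tested. The library of day 15 numbered 2 also correlated better with day 12 than with its own day in these tissues, with a mean r of 0.977 against 0.946 in the oviduct and 0.938 against 0.901 in the ovary. Number 3 of the oviduct also did so, by a smaller margin (0.947 against 0.946). Whether a number stands for the same gilt in the 3 tissues is not given in the sources used here.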

How the data were processed

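Endometrial poly-A RNA of each library was sequenced as paired reads. The authors trimmed the first 13 bases, mapped the reads with tophat2 2.0.13 to Sus scrofa 10.2 with Ensembl 78, and the deposited table holds their raw counts per gene for each library, neither normalized nor pooled. The submitters' notes name featureCounts, and its version, options and strand setting are not given in the sources used here, so reads of overlapping or antisense genes, and of close paralogs, may be shared. Of 25322 identifiers 11804 could be paired with a symbol. No coordinates are printed because the reference table is of another build.

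All 22 endometrium libraries were fitted with day as a factor in edgeR 4.0.16 (R 4.3.3) with TMM, filterByExpr, robust glmQLFit and glmQLFTest, and Benjamini-Hochberg adjustment over all genes tested. DESeq2 1.42.0 and limma 3.58.1 (voom with quality weights) were alternatives. Fold changes are log2, and SE is |log2 FC| over the root of the F statistic. The steps were tested on simulated counts. The authors' own tests used FPKM, which are not used here. Total counts are given with the results.

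Named genes were the 10 largest rises and falls with a symbol (adjusted p under 0.05, groups apart, no library under 10 counts in the higher group), and up to 4 members per list by the same rule. Results for 2 genes are not reported here. Other list members in the text were chosen for their list and call. COL3A1, CD14 and S100A8 stand in 2 lists each. The members and lists were chosen with earlier results of these data known. A planned count of DEGs whose day 18 or day 0 mean lay on the day 15 side of day 12 was replaced by contrasts with day 9, because it would share the day 12 libraries. Gilts differed between days, and deviations of libraries that share a number correlated at 0.073, 0.268 and 0.024 (numbers 1 to 3), so the number was a block only in an alternative.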

Additional observations from a re-analysis of the deposited data

Results flagged for a closer look

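In 6 of 27 sets of 4 day 15 values tested for a lone extreme, 1 library stood apart from the other 3 by more than Dixon's limit. The sets include genes named by these same values and come from the same 4 libraries. The count is therefore a description and cannot be set against chance. For the mean r with the other libraries of day 15, number 2 was the lowest, with a gap of 0.857 of the whole range. DDX52 was lowest in number 2, with a gap of 0.97, and ANKH and NTN3 were highest in it, with gaps of 0.966 and 0.979. These 4 share the same library. GPSM2 was highest in number 1 (gap 0.946) and WIF1 was lowest in number 4 (gap 0.878).

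CRABP2, the carrier of retinoic acid, was lower in every endometrium library of day 15 than in any of day 12 but had a log2 FC of 1.74 in the oviduct, where all 4 libraries of day 15 (2.31 to 8.57 CPM) were above the 4 of day 12 (1.05 to 2.19 CPM). The difference between the tissues was not tested, and the oviduct change did not pass by itself (adjusted p = 0.187 by edgeR).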

How the results depend on the processing

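The number of DEGs between days 15 and 12 changed under most settings. It was 985 with DESeq2 size factors, 500 (317 higher, 183 lower) without a filter, 2086 (1263 and 823) by DESeq2, 3297 (1512 and 1785) by limma voom with quality weights, 1 (0 and 1) with the 2 days fitted alone (2083 genes at an unadjusted p under 0.05) and 0 at an adjusted p under 0.01 (4268 at an unadjusted p under 0.05). The gene called with the 2 days alone was ENSSSCG00000006045, which was lower. Voom gave its lowest weight of the 7 libraries, 0.196, to day 15 number 2. Leaving out 1 library at a time gave 0 to 4349 DEGs, 0 to 2078 higher and 0 to 2271 lower. With the library number as a replicate block 0 genes passed by edgeR (3094 at an unadjusted p under 0.05), and number 4 of day 15 was alone in its block. Numbers 1 and 2 of day 12 correlated best with their own number on day 15 and number 3 did not, so the numbers were not taken to pair the libraries.

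Settings that also left out number 2 were chosen after seeing the data. They gave 2149 DEGs (1012 higher, 1137 lower) with the 2 days alone, 4809 (2320 and 2489) by DESeq2, 3979 (1899 and 2080) by voom and 3014 (1492 and 1522) with the replicate block. The 23 named genes kept their direction in every setting. All 23 kept their call with DESeq2 size factors, by DESeq2 and without number 2, and 0 kept it with the 2 days alone, with the block, and without number 1 or number 4 of day 15.

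With the 2 days alone, 0 rises and 0 falls could be followed to day 18. Leaving out 1 day 15 library at a time, 0 to 970 rises and 0 to 944 falls were also called between day 18 and day 9. In the oviduct and the ovary 0 genes were called by edgeR with the 2 days alone (1988 and 1659 at an unadjusted p under 0.05), 217 and 1361 by DESeq2 and 851 and 1176 without number 2 of day 15, the last chosen after seeing the data. The mean r of number 2 with its own day was 0.901 with a pseudocount of 0.1 and 0.453 over the 500 most variable genes, over which it was 0.904 with day 12. With a median over genes higher on day 9, day 12 numbers 1 and 3 stood at 0.529 and 0.470. The other alternatives for distances and positions moved values by less than the spread between libraries.

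Limits are the 3 or 4 libraries a day, the library of day 15 that resembles day 12, and whole tissue. At these depths genes under 3 counts in a library, such as S100A8 on day 12, have no firm fold change.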

Other observations

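Some further genes were picked after their values were seen and are described without a test. SAL1, the gene of salivary lipocalin, a secreted protein of the pig uterus, was abundant and uneven, at 21824, 1487 and 4646 CPM on day 12 and 1621, 8014, 123 and 12.1 CPM on day 15. Its levels spread widely within each day. OGDH, a subunit of the 2-oxoglutarate dehydrogenase of the citric acid cycle, was at 3844, 4772 and 5849.6 CPM on day 12 and 583, 3764, 376 and 546 CPM on day 15, so number 2 stood with day 12 and the other 3 libraries far below. PSAP, the precursor of the lysosomal saposins, was at 1618, 1468 and 2607 CPM on day 12 and 6850.5, 1612, 4390.2 and 4748 CPM on day 15, with number 2 again in the range of day 12.

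The basement membrane collagen genes COL4A5 and COL4A6 were lower on day 15 in number 2 as well. COL4A5 was at 14.6, 44.8 and 28.9 CPM on day 12 and 11.1, 11.7, 8.76 and 7.06 CPM on day 15, and COL4A6 at 49.7, 121 and 89.4 CPM on day 12 and 35.1, 47.8, 23.4 and 18.8 CPM on day 15. IL33, a nuclear alarm cytokine, was at 19.8, 18.5 and 11.2 CPM on day 12 and 103, 26.8, 117 and 128 CPM on day 15, and number 2 lay above day 12 but far below its own day.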
